A study of Mus musculus with 18 samples.

Results

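The genes described here encode the subunits of the proteasome, its activators, its inhibitor and the chaperones that assemble it, measured in microglia of the mouse brain. They were chosen by symbol, as every gene named Psma to Psmg with a number on a probe set with 1 gene symbol, each read from its brightest probe set over the 18 arrays. This gave 49 of the 22180 genes tested. Of these, 47 are subunits or cofactors of the proteasome, while Psmc3ip, a factor of meiotic recombination, and Psme3ip1, a protein that binds Psme3, matched by symbol and were counted apart. Psma4 lay only on probe sets shared with another symbol and was not among them.

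Microglia were taken from untreated C57Bl/6 mice kept free of specific pathogens, enriched on a Percoll gradient and sorted for CD45 and CD11b and against Gr1. The 6 groups of 3 arrays were cortex and corpus callosum (the white matter tract that joins the hemispheres), each at 3 ages, postnatal day 3 (P3), postnatal day 7 (P7) and adult, the last with no age in days in the labels. No group carried an engineered allele or a treatment. Neither the number of animals behind an array nor their sex is stated in the labels, so p-values measure only the spread between these samples, which may be technical.

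The proteasome is the protease that degrades proteins marked with ubiquitin. Its 20S core is a barrel of alpha and beta rings in which Psmb5, Psmb6 and Psmb7 cut the protein chain, and the 19S particle at its end holds a ring of ATPases that unfold the substrate and non-ATPase subunits that bind ubiquitin and remove it. In immune cells and under interferon, Psmb8, Psmb9 and Psmb10 take the places of Psmb5, Psmb6 and Psmb7 to form the immunoproteasome, which alters the peptides offered on MHC class I, and microglia, the macrophages of the brain, can express both forms.

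All levels are log2 values, so a difference of 1 is a factor of 2. The value after ± is a standard error for a difference and a standard deviation for a level, with n = 3 arrays per group, and genes count as called where limma, over all 22180 genes, gave an adjusted p under 0.05. The array medians lay between 5.58 and 5.74. Microglial markers were high in all groups, with a mean of 7 of 8 listed genes between 10.6 and 11.6 on every array. The first adult array of each region correlated less with the other arrays (mean 0.956 in cortex and 0.953 in corpus callosum) than the remaining 16, which lay at 0.961 or above, and the calls with both left out are given beside the counts. The P3 arrays carry another label prefix than the P7 and adult arrays, so age and array set cannot be told apart in comparisons of P3 with P7. Levels of different probe sets are not comparable, so the text reads differences between groups, of 1 gene or of the distance between the probe sets of 2 genes on the same array.

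The stretches of 250 bases before the transcription start of 4 members are shown because these genes moved differently with age: Psma1 and Psmb5 belong to the core that was lower in the adult, whereas Psmb8 and Psmb9 belong to the immunoproteasome. The sequences come from RefSeq on the mouse assembly GRCm38.p6, where 41 of the 49 members had an entry. Capitals mark matches, on either strand, to CCAAT (the core of the site of the factor NF-Y), to TGACNNNGC (the core of the antioxidant response element) or to TTCNNNGAA (the element bound by STAT factors), where N is any base. Psma1 is at chr7:114276117-114276366 on the minus strand, Psmb5 at chr14:54617996-54618245 on the minus strand, Psmb8 at chr17:34197945-34198194 on the plus strand and Psmb9 at chr17:34187331-34187580 on the minus strand. Each is written 5′ to 3′ along its gene and ends just before the start.
Psma1: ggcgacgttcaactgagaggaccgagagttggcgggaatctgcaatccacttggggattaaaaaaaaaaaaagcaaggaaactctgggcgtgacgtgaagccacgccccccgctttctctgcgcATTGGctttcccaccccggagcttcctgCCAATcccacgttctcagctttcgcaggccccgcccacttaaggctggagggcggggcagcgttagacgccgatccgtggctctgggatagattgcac
Psmb5: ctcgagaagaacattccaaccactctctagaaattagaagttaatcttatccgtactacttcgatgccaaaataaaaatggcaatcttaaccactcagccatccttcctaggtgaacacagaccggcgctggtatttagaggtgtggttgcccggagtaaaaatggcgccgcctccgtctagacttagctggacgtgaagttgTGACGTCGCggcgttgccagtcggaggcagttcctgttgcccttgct
Psmb8: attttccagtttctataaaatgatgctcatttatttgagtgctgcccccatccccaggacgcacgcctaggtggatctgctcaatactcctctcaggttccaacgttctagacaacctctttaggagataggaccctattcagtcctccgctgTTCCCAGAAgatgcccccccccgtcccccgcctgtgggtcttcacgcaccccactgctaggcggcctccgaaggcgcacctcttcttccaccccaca
Psmb9: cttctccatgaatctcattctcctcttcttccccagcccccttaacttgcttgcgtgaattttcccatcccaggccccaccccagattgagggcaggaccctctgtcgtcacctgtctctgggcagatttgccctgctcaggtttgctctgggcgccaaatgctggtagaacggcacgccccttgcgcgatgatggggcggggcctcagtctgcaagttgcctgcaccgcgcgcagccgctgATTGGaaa

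In Psma1 the CCAAT matches lay 126 to 122 and 98 to 94 bases before the start. The TGACNNNGC match of Psmb5 lay 47 to 39 bases before its start, the TTCNNNGAA match of Psmb8 97 to 89 bases and the CCAAT match of Psmb9 8 to 4 bases. Psmb9 is transcribed away from Tap1, which encodes a subunit of the transporter that carries peptides to MHC class I, and the 2 starts are 225 bases apart. Within the 250 bases before the start, TGACNNNGC was in 11.1% of the 45 starts of members against 10.2% of all 32851 promoters. CCAAT was in 35.6% against 33.8%, TTCNNNGAA in 4.44% against 7.02%, and the core of the element bound by interferon regulatory factors, GAAA and again GAAA with any 2 bases between, in 6.67% against 2.98%. None of the 3 immunoproteasome genes held this last motif in these 250 bases. A match is a stretch of letters and not a measured binding site.

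From P7 to adulthood many proteasome transcripts fell, with more of them called in corpus callosum than in cortex. In cortex 10 of the 47 were called lower and 1, Psmb9, higher, against 6.15% and 4.05% of all genes. In corpus callosum 29 of 47 were called lower and 0 higher, against 10.7% and 6.56% of all genes. Higher calls made up 38.0% of all callosal calls as deposited and 22.8% with each array centred on its median. As most members are bright, the share among genes at or above the median level is the nearer background, and there 11.6% of genes were called lower in cortex and 20.1% in corpus callosum. The median difference of the 47 was -0.22 in cortex and -0.50 in corpus callosum, against 0.032 and 0.054 over all genes tested. In RNA of sorted bulk samples, fewer cells of a type and less RNA per cell cannot be told apart.

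**Figure D1:**
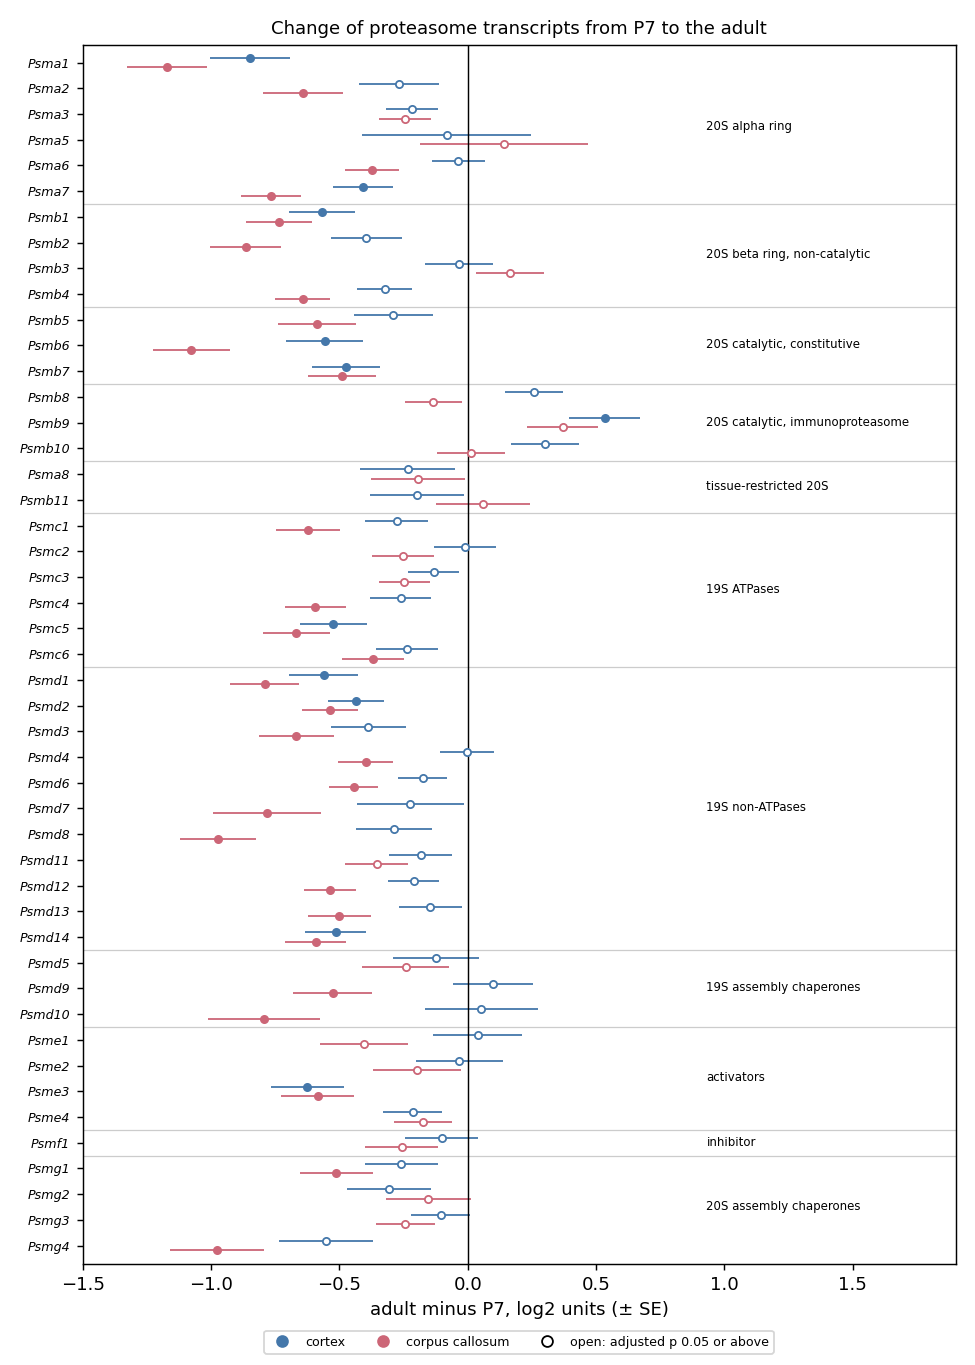
Difference of adult minus P7 in log2 units (x axis) for the 47 proteasome genes (y axis, ordered by role), with cortex in blue and corpus callosum in red; points are differences of group means with 3 arrays per group, bars are standard errors, and open points were not called. The 20S and 19S genes lie mostly left of 0 and further left in corpus callosum, while Psmb9 lies right of 0 in both regions.

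The 10 genes called lower in cortex were all among the 29 called lower in corpus callosum, which is 100% of the cortical list and 34.5% of the callosal one. Over all genes the shared part was 85.6% of the cortical list and 49.4% of the callosal one. Of the 29 callosal calls, 27 had a difference below 0 in cortex too. On 24 of the 47 genes all 6 adult arrays of both regions lay apart from all 6 P7 arrays, 23 lower and Psmb9 higher, against 12.8% of all genes tested.

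The count in cortex depended on single arrays. Over all 49 members it was 12, and it was 5 without the third cortical P7 array and 7 without the first cortical adult array, whereas array quality weights gave 19. In corpus callosum the 30 calls were 24 to 29 when any 1 array was left out. With both adult first arrays left out, 9 genes were called in cortex, 8 of the 12 and Psmg2, and 26 in corpus callosum, 24 of the 30 with Psmb9 (higher) and Psmd11. The calls lost in that setting were those of Psma7, Psmb6, Psmb7 and Psmc5 in cortex and of Psmb7, Psmc6, Psmd4, Psmd7, Psmd9 and Psmd10 in corpus callosum. Psmb2, Psmb4 and Psmg4 were also called lower in cortex with array quality weights, with dimmer genes left out and with the trend and robust options of eBayes.

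Markers of microglia and of other cells moved over the same interval. The mean level of 8 markers of border-associated macrophages was 6.49 to 6.96 on the P7 arrays and 5.34 to 5.50 on the adult arrays, with 4 of the 8 called lower in cortex and 5 of the 8 in corpus callosum. Mrc1, the mannose receptor, went from 11.05 to 6.82 in cortex and from 10.57 to 6.13 in corpus callosum. The mean of 7 neuronal markers was 5.94 to 6.27 at P7 and 5.59 to 5.86 in the adult. All 7 measured microglial markers were higher in the adult in both regions, with 4 called in cortex and 5 in corpus callosum. Of 5 astrocyte markers, 2 were called higher in cortex and 1 in corpus callosum, and of 5 endothelial and mural markers 1 in cortex. Of 5 measured monocyte markers, 1 was called higher and 2 lower in cortex, and 1 higher and 1 lower in corpus callosum. The part of other cells in the proteasome differences was not tested.

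Among the alpha subunits, which form the outer rings and the gate of the 20S barrel, Psma1 fell most. Its level was 9.26, 9.36 and 9.35 on the cortical P7 arrays and 8.56, 8.33 and 8.53 on the cortical adult arrays. On the callosal arrays it was 8.89, 9.29 and 9.31 at P7 and 7.80, 8.29 and 7.89 in the adult. The adult arrays were below all P7 arrays in both regions, and those of corpus callosum were below those of cortex. The decrease was 1.80-fold in cortex (difference -0.85 ± 0.16, adjusted p = 0.00107) and 2.25-fold in corpus callosum (-1.17 ± 0.16, adjusted p = 2.82e-05).

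Psma7 also fell in both regions, by 0.41 ± 0.12 in cortex (adjusted p = 0.0321) and by 0.77 ± 0.12 in corpus callosum (adjusted p = 0.000125). The cortical call of Psma7 was lost when any of 5 of the 6 cortical arrays was left out, with an adjusted p of up to 0.137. Psma2 fell by 0.64 ± 0.16 and Psma6 by 0.37 ± 0.10 in corpus callosum, where their adjusted p-values were 0.00672 and 0.0168. Psma6 lost this call without any of 4 of the 6 callosal arrays, with an adjusted p of up to 0.0624. Its call was also lost after quantile normalization and with only the arrays compared, and its adjusted p reached 0.131 over all alternatives. In cortex the difference was -0.27 ± 0.16 for Psma2 and -0.04 ± 0.10 for Psma6, neither called. Psma3 was not called, at -0.22 ± 0.10 in cortex and -0.25 ± 0.10 in corpus callosum, though its adult arrays lay below its P7 arrays in both regions. Psma5, whose probe set lay below the array medians, spread too widely to be read, at -0.08 ± 0.33 and 0.14 ± 0.33.

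Of the 4 beta subunits that do not cut, 3 fell in corpus callosum and 1 in cortex, against 20.1% and 11.6% of genes at or above the median level. Psmb1 fell by 0.57 ± 0.13 in cortex (adjusted p = 0.00629) and by 0.74 ± 0.13 in corpus callosum (adjusted p = 0.000436). Psmb2 was 9.69, 9.75 and 9.73 on the callosal P7 arrays and 8.75, 8.56 and 9.25 on the callosal adult arrays, which did not overlap. That was a decrease of 1.82-fold (-0.86 ± 0.14, adjusted p = 0.000188), against -0.39 ± 0.14 in cortex (adjusted p = 0.0872). Psmb4 fell by 0.64 ± 0.11 in corpus callosum and differed by -0.32 ± 0.11 in cortex, where the adjusted p was 0.0693. Psmb3, close to the array medians, was at -0.03 ± 0.13 in cortex and 0.17 ± 0.13 in corpus callosum.

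Of the 13 genes of the 20S core without the immunoproteasome, 5 were called lower in cortex and 10 in corpus callosum. Among genes at or above the median level 11.6% and 20.1% were. The median difference of the 13 was -0.32 in cortex and -0.64 in corpus callosum, against -0.0052 and -0.0447 over those brighter genes.

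The constitutive catalytic subunits fell in corpus callosum, and 2 of the 3 fell in cortex. Among genes at or above the median level 20.1% and 11.6% were called lower. Psmb6, which carries the caspase-like site, had the largest difference of the 3. Psmb6 was 8.67, 8.77 and 8.80 on the cortical P7 arrays and 8.01, 8.27 and 8.29 on the cortical adult arrays. In corpus callosum it was 9.47, 9.09 and 8.99 at P7 and 7.95, 8.13 and 8.24 in the adult. All adult arrays were below all P7 arrays, and the callosal P7 arrays were the highest of the 4 groups. The difference was -0.56 ± 0.15 in cortex (adjusted p = 0.0207) and -1.08 ± 0.15 in corpus callosum (adjusted p = 4.52e-05), a decrease of 1.47-fold and 2.11-fold.

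Psmb7, the subunit with the trypsin-like site, was 9.16, 9.52 and 9.43 at P7 and 8.68, 9.09 and 8.92 in the adult in cortex. On the callosal arrays it was 9.36, 9.49 and 9.31 at P7 and 8.68, 8.97 and 9.05 in the adult. The groups did not overlap in either region, and Psmb7 fell by 0.47 ± 0.13 in cortex (adjusted p = 0.0253) and by 0.49 ± 0.13 in corpus callosum (adjusted p = 0.0138). Psmb5, the chymotrypsin-like subunit, was 9.70, 9.55 and 9.41 on the callosal P7 arrays and 9.09, 8.77 and 9.03 on the callosal adult arrays. It fell there by 0.59 ± 0.15 (adjusted p = 0.0112). In cortex Psmb5 went from 9.39, 9.38 and 9.34 to 8.93, 9.19 and 9.13, again without overlap, and its difference of -0.29 ± 0.15 was not called (adjusted p = 0.31).

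Leaving out 1 array ended several of these calls. In cortex Psmb6 and Psmb7 were not called without the first adult array (adjusted p = 0.0935 and 0.125), the second P7 array (0.0716 and 0.135) or the third P7 array (0.0816 and 0.101), and Psmb7 not without the third adult array (0.0623). In corpus callosum Psmb5 lost its call without the first P7 array (0.0589) or the second adult array (0.0626), and Psmb7 without the second P7 array (0.0647) or the first adult array (0.0801). Psmb6 in corpus callosum kept its call in all 15 alternatives.

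None of the 3 immunoproteasome subunits was called lower in either region. Among genes at or above the median level 11.6% were called lower in cortex and 20.1% in corpus callosum, so this count does not set 3 genes apart. Of all 47 genes, 36 had no call in cortex and 18 had none in corpus callosum. Psmb9, which replaces Psmb6, was 8.20, 8.34 and 8.18 on the cortical P7 arrays and 8.74, 8.87 and 8.71 on the cortical adult arrays. In corpus callosum it was 8.37, 8.26 and 8.01 at P7 and 8.38, 8.69 and 8.68 in the adult. The adult arrays were above the P7 arrays in both regions, narrowly so in corpus callosum. Psmb9 rose 1.45-fold in cortex (0.53 ± 0.14, adjusted p = 0.0159), and its difference in corpus callosum, 0.37 ± 0.14, was not called (adjusted p = 0.0766).

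The cortical call of Psmb9 was lost without the first P7 array (adjusted p = 0.0532), the third P7 array (0.0717) or the second adult array (0.0718), and its difference stayed between 0.49 and 0.58 over all alternatives. In corpus callosum it was called in 5 of 15 alternatives, among them the one without the first adult array (0.47, adjusted p = 0.0431), and its adjusted p ranged from 0.0197 to 0.291.

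Psmb8, which replaces Psmb5, was 7.27, 7.53 and 7.45 at P7 and 7.48, 7.81 and 7.74 in the adult in cortex, so that the groups overlapped. On the callosal arrays it was 7.57, 7.65 and 7.58 at P7 and 7.42, 7.45 and 7.53 in the adult, with every adult array lower. Neither difference was called, at 0.26 (95% interval 0.02 to 0.49, adjusted p = 0.192) in cortex and -0.13 (-0.37 to 0.10, adjusted p = 0.474) in corpus callosum. With array quality weights Psmb8 was called higher in cortex (0.30, adjusted p = 0.0232). Psmb10, which replaces Psmb7, was 8.0, 8.15 and 8.12 at P7 and 8.38, 8.41 and 8.39 in the adult in cortex, without overlap. In corpus callosum it was 8.22, 8.12 and 8.10 at P7 and spread to 8.15, 7.92 and 8.41 in the adult. Its difference was 0.30 (0.02 to 0.58, adjusted p = 0.2) in cortex and 0.01 (-0.27 to 0.29, adjusted p = 0.964) in corpus callosum, neither called.

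**Figure D2:**
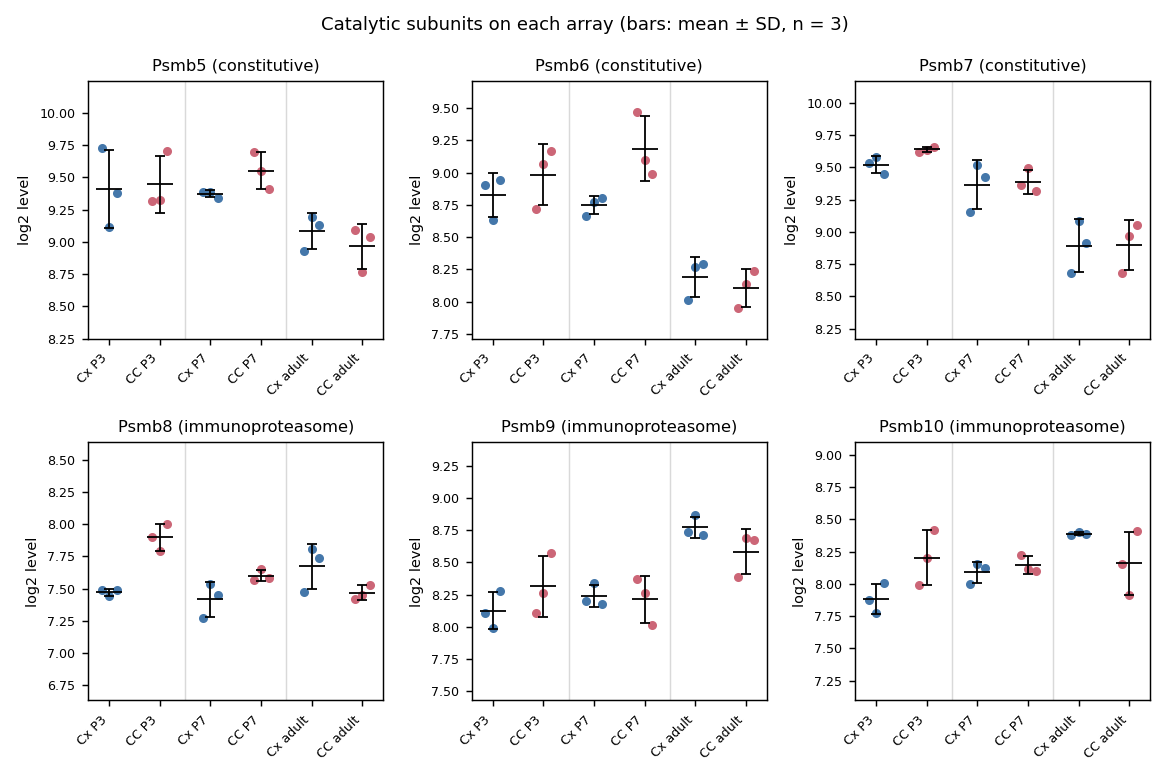
Log2 level (y axis) of the constitutive catalytic subunits (top row) and of the immunoproteasome subunits (bottom row) on each array (points) by group (x axis; Cx cortex, CC corpus callosum), with bars for mean ± SD of 3 arrays; all 6 panels span the same number of log2 units. Psmb5, Psmb6 and Psmb7 are lowest in both adult groups, while Psmb9 is highest there and Psmb8 is highest in corpus callosum at P3.

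Set against its constitutive counterpart on the same array, each immunoproteasome subunit was higher in the adult than at P7. Psmb9 minus Psmb6 lay between -0.62 and -0.44 on the cortical P7 arrays and between 0.42 and 0.73 on the cortical adult arrays, a shift of 1.09. In corpus callosum it lay between -1.10 and -0.84 at P7 and between 0.43 and 0.56 in the adult, a shift of 1.45. All 6 adult arrays were above all 6 P7 arrays for this pair.

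Psmb10 minus Psmb7 shifted by 0.77 in cortex, from between -1.37 and -1.16 to between -0.68 and -0.30, and by 0.50 in corpus callosum, from between -1.38 and -1.14 to between -1.05 and -0.53. Psmb8 minus Psmb5 shifted by 0.55 in cortex, from between -2.12 and -1.85 to between -1.45 and -1.38, and by 0.45 in corpus callosum, from between -2.13 and -1.83 to between -1.67 and -1.32. For both pairs too, all 6 adult arrays were above all 6 P7 arrays. Such a separation of 6 from 6 arrays held for 21.2% of the 1081 pairs that can be formed of the 47 genes. In corpus callosum the constitutive partners Psmb5 and Psmb7 fell by 0.59 and 0.49 while Psmb8 and Psmb10 differed by -0.13 and 0.01. In cortex Psmb5 and Psmb7 differed by -0.29 and -0.47, and Psmb8 and Psmb10 by 0.26 and 0.30. The pairs also moved from P3 to P7. Psmb8 minus Psmb5 lay between -1.70 and -1.41 on the callosal P3 arrays, which overlapped the callosal adult arrays. From P3 to P7 it shifted by -0.40 in corpus callosum, without overlap, and by -0.02 in cortex. Psmb9 minus Psmb6 shifted by 0.19 in cortex and -0.30 in corpus callosum, both without overlap. Psmb10 minus Psmb7 shifted by 0.36, without overlap, and by 0.19.

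**Figure D3:**
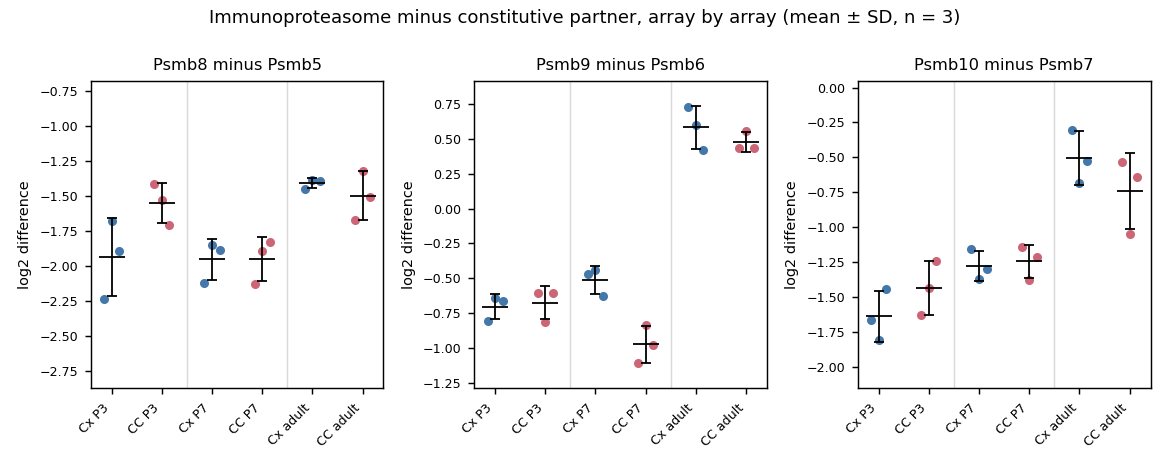
Difference in log2 level between each immunoproteasome subunit and its constitutive counterpart on the same array (y axis) by group (x axis; Cx cortex, CC corpus callosum), with points for arrays and bars for mean ± SD of 3 arrays. In each panel the 6 adult arrays lie above the 6 P7 arrays; the height itself depends on the 2 probe sets and gives no ratio of transcripts.

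The 19S particle fell in corpus callosum almost throughout. Of its 17 subunits, 14 were called lower there and 4 in cortex, against 20.1% and 11.6% of genes at or above the median level, with a median difference of -0.54 and -0.24, and all 17 differences were below 0 in both regions. Among the 6 ATPases, Psmc5 fell in both regions, by 0.52 ± 0.13 in cortex (adjusted p = 0.0121) and by 0.67 ± 0.13 in corpus callosum (adjusted p = 0.00118). Psmc1, Psmc4 and Psmc6 fell in corpus callosum, by 0.62 ± 0.12, 0.59 ± 0.12 and 0.37 ± 0.12. In cortex these 3 differed by -0.28, -0.26 and -0.24 and were not called. Psmc2 and Psmc3 were called in neither region, with differences from -0.25 to -0.01.

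The non-ATPase subunits form the base and the lid of the 19S particle. Psmd8, a lid subunit, was 9.79, 9.63 and 9.54 on the callosal P7 arrays and 8.50, 8.45 and 9.09 on the callosal adult arrays. In cortex it was 9.27, 9.31 and 9.30 at P7 and 9.15, 8.87 and 9.0 in the adult. The adult arrays were lower in both regions, by a wider margin in corpus callosum. It fell 1.96-fold in corpus callosum (-0.97 ± 0.15, adjusted p = 0.000106), and its cortical difference of -0.29 ± 0.15 was not called (adjusted p = 0.292).

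Psmd1 and Psmd2, the scaffold subunits of the base, and Psmd14, the deubiquitinase of the lid, fell in both regions. Psmd1 fell by 0.56 ± 0.13 in cortex and 0.79 ± 0.13 in corpus callosum, Psmd2 by 0.44 ± 0.11 and 0.54 ± 0.11, and Psmd14 by 0.51 ± 0.12 and 0.59 ± 0.12. Their adjusted p-values lay between 0.000322 and 0.0129. Psmd3, Psmd4, Psmd6, Psmd7, Psmd12 and Psmd13 were called in corpus callosum and not in cortex. They fell there by 0.67, 0.40, 0.44, 0.78, 0.54 and 0.50, and in cortex differed by -0.39, -0.0026, -0.18, -0.22, -0.21 and -0.15. Psmd4, a receptor for ubiquitin chains, was nearly the same at both ages in cortex, at 8.36, 8.36 and 8.40 on the P7 arrays and 8.39, 8.37 and 8.36 on the adult arrays. Psmd11 missed the threshold in corpus callosum at -0.35 ± 0.12 (adjusted p = 0.0548) and was called with array quality weights (-0.42, adjusted p = 0.0143). Psmd3 and Psmd8 were called lower in cortex with these weights (adjusted p = 0.0177 and 0.0488).

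Single arrays also bore on the 19S calls. In cortex Psmc5 lost its call without the second P7 array (adjusted p = 0.0591), the third P7 array (0.0719) or the first adult array (0.0705), Psmd1 without the third P7 array (0.0619) or the first adult array (0.0526), and Psmd2 without the third P7 array (0.0622). In corpus callosum Psmd4 was not called without the first P7 (0.0606), first adult (0.0593) or second adult array (0.0573), Psmd7 not without the first adult array (0.0814), and Psmc6 not without any of 4 of the 6 arrays (up to 0.156). Psmd14 kept its call in both regions in all 15 alternatives of each.

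Some of the chaperones that assemble the proteasome fell in corpus callosum. Psmg4, a partner of Psmg3 in the assembly of the alpha ring, was 7.32, 7.18 and 7.34 on the callosal P7 arrays and 6.25, 6.5 and 6.15 on the callosal adult arrays. In cortex it was 7.12, 7.12 and 7.27 at P7 and 6.67, 6.56 and 6.61 in the adult. The groups did not overlap in either region. Psmg4 fell 1.97-fold in corpus callosum (-0.98 ± 0.18, adjusted p = 0.000777), while -0.55 ± 0.18 in cortex missed the threshold (adjusted p = 0.0638).

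Psmg1 fell by 0.51 ± 0.14 in corpus callosum (adjusted p = 0.0167; 0.0813 without the second P7 array) and differed by -0.26 ± 0.14 in cortex. Psmg2, with which Psmg1 pairs, and Psmg3 were called in neither region, at -0.31 and -0.11 in cortex and -0.15 and -0.24 in corpus callosum. Psmg2 was called lower in cortex with array quality weights (-0.43, adjusted p = 0.0209) and with both adult first arrays left out (-0.48, adjusted p = 0.0461). A second, dimmer probe set of Psmg2 was called lower in corpus callosum (-0.65 ± 0.19, adjusted p = 0.031 over all probe sets), so the probe sets of this gene disagree.

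Among the chaperones of the 19S base, Psmd10 (gankyrin) was 7.62, 7.51 and 7.42 on the callosal P7 arrays and 6.13, 7.01 and 7.04 on the callosal adult arrays. It fell by 0.79 ± 0.22 (adjusted p = 0.0161), but 1 adult array was far lower, and without it the difference was -0.50 and not called (adjusted p = 0.101). The call was also lost without the first P7 array (adjusted p = 0.0617). Psmd9 fell by 0.53 ± 0.15 in corpus callosum (adjusted p = 0.0238), a call lost without any of 4 arrays with an adjusted p of up to 0.0828. In cortex Psmd10 differed by 0.05 ± 0.22 and Psmd9 by 0.10 ± 0.15. Psmd5 was called in neither region.

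The activators, which open the gate of the 20S core in place of the 19S particle, gave 1 call among their 4 measured members in each region. Among genes at or above the median level 11.6% were called lower in cortex and 20.1% in corpus callosum, so 1 of 4 does not set the activators apart. Psme3, the activator of the nucleus, was 6.40, 6.27 and 6.38 in cortex at P3, 7.09, 7.27 and 7.20 at P7 and 6.23, 6.76 and 6.69 in the adult. On the callosal arrays it was 6.44, 6.5 and 6.80 at P3, 7.04, 7.03 and 6.90 at P7 and 6.20, 6.48 and 6.54 in the adult. The P7 arrays were the highest in both regions, above every P3 and every adult array. It was 1.54-fold lower in adult than in P7 cortex (-0.63 ± 0.14, adjusted p = 0.00668) and 1.5-fold lower in corpus callosum (-0.59 ± 0.14, adjusted p = 0.00716).

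Between P3 and P7 Psme3 rose 1.79-fold in cortex (0.84 ± 0.14, adjusted p = 0.00686), the only one of the 47 called there, against 0.280% of all genes called higher. With array quality weights 4 of the 49 were called, among them Psmd4 and Psmd7. In corpus callosum the difference of Psme3 was 0.41 ± 0.14 (adjusted p = 0.193), and 0 of the 47 were called in limma, against 0.739% of all genes. An unadjusted p under 0.05 was reached there by 5 of the 47, against 3149 of all 22180 genes. The difference between the regions in this step was not called (-0.43 ± 0.20, adjusted p = 0.868). These comparisons share the P7 arrays with those of adult and P7.

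Psme1 and Psme2, the interferon-inducible activator that often acts with the immunoproteasome, were called in no comparison fitted without weights. Psme1 was 8.49, 8.57 and 8.60 at P7 and 8.69, 8.56 and 8.53 in the adult in cortex, a difference of 0.04 (95% interval -0.32 to 0.40). Callosal values were 8.70, 8.73 and 8.61 at P7 and 8.42, 7.99 and 8.42 in the adult, a difference of -0.40 (-0.77 to -0.04, adjusted p = 0.125) without overlap. With array quality weights Psme1 was called lower there (-0.46, adjusted p = 0.0324). Psme2 differed by -0.03 (-0.39 to 0.32) in cortex and by -0.20 (-0.56 to 0.16) in corpus callosum. Psme4, a nuclear activator, differed by -0.21 ± 0.11 and -0.17 ± 0.11, and the inhibitor Psmf1 by -0.10 ± 0.14 and -0.26 ± 0.14.

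**Figure D4:**
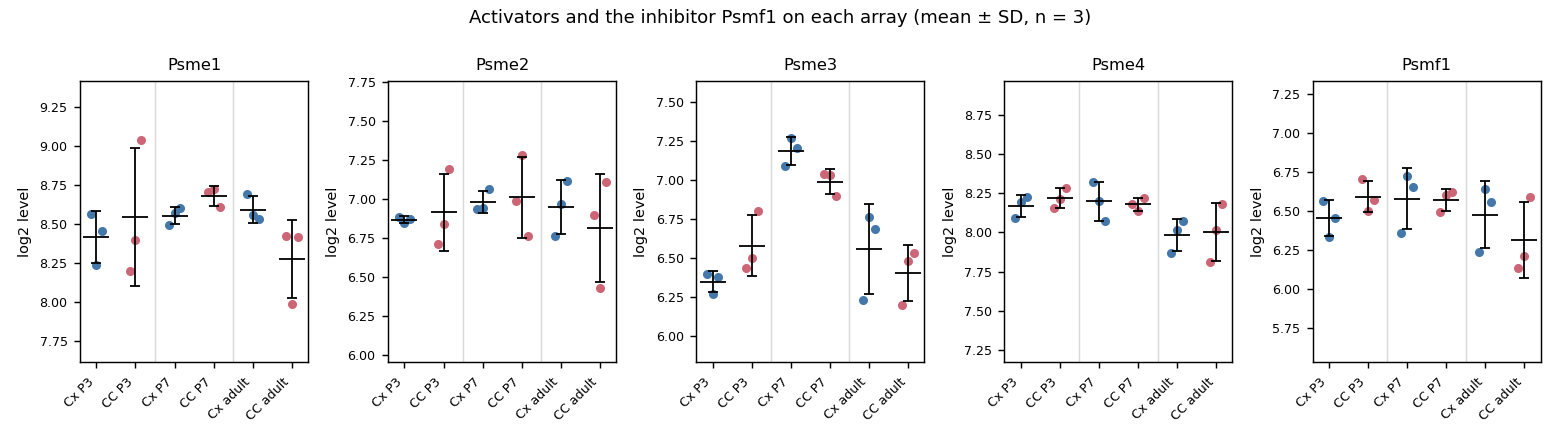
Log2 level (y axis) of the activators Psme1 to Psme4 and of the inhibitor Psmf1 on each array (points) by group (x axis; Cx cortex, CC corpus callosum), with bars for mean ± SD of 3 arrays. Psme3 is highest at P7 in both regions, whereas the cortical P7 and adult arrays overlap for Psme1, Psme2 and Psmf1.

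The tissue-restricted subunits Psma8 of the testis and Psmb11 of the thymus were dim, with Psmb11 below the array medians, and were called in no comparison. Psmc3ip, matched by symbol alone, was called lower in adult cortex (-0.75 ± 0.14) and adult corpus callosum (-0.81 ± 0.14), while Psme3ip1 was called in neither (0.01 ± 0.12 and -0.14 ± 0.12).

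The difference between adult and P7 was lower in corpus callosum than in cortex for 40 of the 47 genes, against 48.8% of all genes. None of the 47 passed the test of that difference in limma, with 10 at an unadjusted p under 0.05 and 0.203% of all genes called. Psmd8 came nearest (-0.68 ± 0.21, adjusted p = 0.345), followed in size of the adjusted p by Psmd9 (-0.62 ± 0.22, 0.471) and Psmd10 (-0.85 ± 0.31, 0.513). Among the catalytic subunits the difference was largest for Psmb6 (-0.52 ± 0.21, adjusted p = 0.578) and Psmb8 (-0.39 ± 0.16, adjusted p = 0.577), and among the ATPases for Psmc1 (-0.34 ± 0.18). A stronger fall in corpus callosum was therefore not shown for any single gene.

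In the adult, 43 of the 47 were lower in corpus callosum than in cortex and 4 were higher. Higher were 51.8% of all genes and 38.6% of genes at or above the median level. The median difference of the 47 was -0.19, against 0.01 over all genes and -0.05 over the brighter ones. On 19 of the 47 the callosal arrays lay below all cortical arrays, against 6.07% of all genes and 9.93% of the brighter ones, and on 1, Psmb3, above, against 6.73% of all genes. None was called in limma, and over all genes 0.00451% were called. Of the 47, 16 had an unadjusted p under 0.05, against 1888 of all 22180 genes and 1070 of the 11090 brighter ones. Psmd10 differed most (-0.70 ± 0.22, adjusted p = 0.447), then Psmd7 (-0.57 ± 0.21, 0.494) and Psma1 (-0.48 ± 0.16, 0.447). Without the first callosal array the difference of Psmd10 was -0.40. Psmc2 led the ATPases (-0.36 ± 0.12), Psmb2 the beta ring (-0.37 ± 0.14), Psme1 the activators (-0.32 ± 0.17) and Psmg4 the 20S chaperones (-0.31 ± 0.18). Without the second callosal array Psmb2 and Psme1 differed by -0.23 and -0.17. The immunoproteasome genes differed by -0.21, -0.19 and -0.23 for Psmb8, Psmb9 and Psmb10, and Psmb5 to Psmb7 by -0.12 to 0.01. The mean level of the 47 genes was 7.67, 7.78 and 7.90 on the callosal adult arrays and 7.93, 8.01 and 8.01 on the cortical ones.

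At P3, 37 of the 47 were higher in corpus callosum than in cortex, against 51.9% of all genes and 57.8% of genes at or above the median level. The median difference of the 47 was 0.11, against 0.0095 over all genes and 0.043 over the brighter ones. On 9 the callosal arrays lay above all cortical arrays, against 9.17% of all genes and 13.5% of the brighter ones. None was called in limma, against 0.505% of all genes. An unadjusted p under 0.05 was reached by 6 of the 47, against 2848 of all 22180 genes and 1826 of the 11090 brighter ones. Psmb8 differed most clearly. It was 7.90, 7.79 and 8.0 on the callosal arrays and 7.49, 7.44 and 7.49 on the cortical ones, without overlap, a difference of 0.42 ± 0.11 (adjusted p = 0.101). It was called when the fit was limited to genes at or above the median level (adjusted p = 0.0461).

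Psmb10 differed at P3 by 0.32 ± 0.13 (adjusted p = 0.312) and Psmb9 by 0.19 ± 0.14 (adjusted p = 0.62), or by 0.21 and 0.059 without the third callosal array, while Psmb5, Psmb6 and Psmb7 differed by 0.04 to 0.16. Psmd10 had the largest difference, 0.44 ± 0.22 (0.24 without the first callosal array), and Psmd8 (0.34 ± 0.15), Psmb1 (0.31 ± 0.13) and Psma6 (0.26 ± 0.10) led their roles. Of 8 markers of border-associated macrophages, 7 were higher in corpus callosum at P3 and 2 were called higher, with a list mean of 6.54 to 7.35 against 6.13 to 6.72 in cortex. Mrc1 went the other way, at 9.64 in corpus callosum and 10.36 in cortex. All 7 neuronal markers were lower in corpus callosum, with 2 called and a list mean of 5.89 to 6.53 against 6.67 to 7.06. Their part in the difference of Psmb8 was not tested.

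At P7, 29 of the 47 were higher in corpus callosum, against 50.8% of all genes and 48.7% of genes at or above the median level. The median difference of the 47 was 0.03. On 6 the callosal arrays lay above all cortical arrays, against 8.97% of all genes and 11.5% of the brighter ones. None was called in limma, against 0.451% of all genes. Of the 47, 2 had an unadjusted p under 0.05, against 1526 of all 22180 genes and 1106 of the 11090 brighter ones. The highest differences were those of Psmb6 (0.44 ± 0.15, adjusted p = 0.404), whose 3 callosal arrays were all above the cortical ones, and of Psmd8 (0.36 ± 0.15, adjusted p = 0.596). The lowest was that of the dim Psma5 (-0.41 ± 0.33), followed by Psmg2 (-0.24 ± 0.16) and Psme3 (-0.20 ± 0.14).

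The regional difference in the adult was below that at P3 for 44 of the 47, with a median of -0.26 against -0.00040 over all genes and -0.098 over genes at or above the median level. None passed the test in limma (15 at an unadjusted p under 0.05), against 0.180% of all genes. Psmd4 (-0.65 ± 0.15, adjusted p = 0.0876), Psmb8 (-0.63 ± 0.16, adjusted p = 0.1) and Psma6 (-0.57 ± 0.15, adjusted p = 0.104) came nearest. Centring each array on its median moved this difference by -0.11 at the median of all genes. These 3 were called after that centring and when dimmer genes were left out, and without the third callosal adult array Psmd4 and Psmd8 were (adjusted p = 0.0473 and 0.0421). Psmb8 thus stood 0.42 higher in corpus callosum at P3, 0.18 higher at P7 and 0.21 lower in the adult. Between P7 and P3 the regional differences of the 47 moved by -0.43 for Psme3 to 0.50 for Psmd9, and none was called, as was none of the genes tested (2 of the 47 at an unadjusted p under 0.05).

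**Figure D5:**
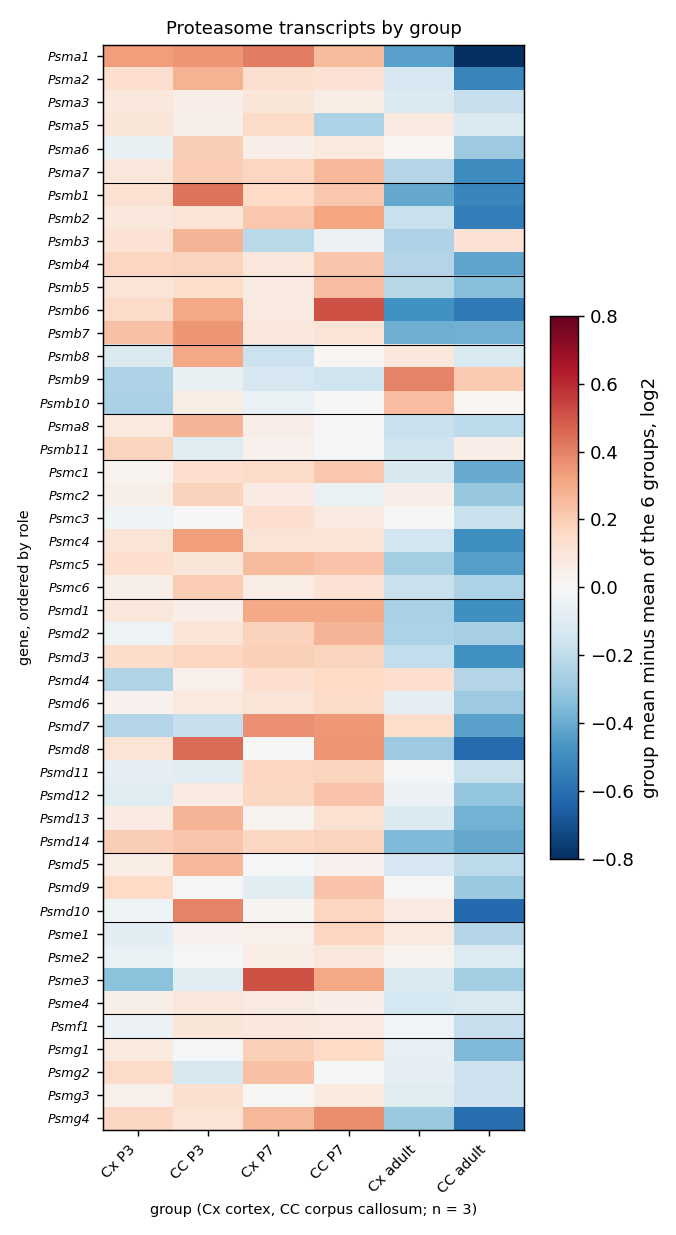
Group mean minus the mean of the 6 groups in log2 units (colour, red higher and blue lower) for the 47 proteasome genes (y axis, ordered by role, lines between roles) in each group of 3 arrays (x axis; Cx cortex, CC corpus callosum). Most 20S and 19S genes are lowest in adult corpus callosum, Psme3 is highest at P7, and Psmb9 is highest in adult cortex.

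From P3 to P7 no proteasome gene besides Psme3 was called. The median difference of the 47 was 0.06 in cortex and 0.01 in corpus callosum. Psmd7 had the largest difference after Psme3 in cortex (0.60 ± 0.21, adjusted p = 0.215) and the largest in corpus callosum (0.53 ± 0.21, adjusted p = 0.248), with all P7 arrays above all P3 arrays in the cortex and in the corpus callosum. Psmd4 differed by 0.37 ± 0.11 in cortex (adjusted p = 0.116) and 0.12 ± 0.11 in corpus callosum. Psmb3 differed by -0.33 ± 0.13 and -0.32 ± 0.13 and Psmb8 by -0.05 ± 0.11 and -0.30 ± 0.11, none of them called. The constitutive catalytic subunits lay within -0.15 to -0.04 in cortex, while in corpus callosum they ran from -0.25 to 0.20.

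Partners of the proteasome also changed from P7 to the adult. Of 22 measured partners and regulators, 4 were called lower and 2 higher in cortex, and 8 lower and 1 higher in corpus callosum. Over all genes 6.15% were called lower and 4.05% higher in cortex, and 10.7% and 6.56% in corpus callosum, with 11.6% and 20.1% lower among genes at or above the median level. The deubiquitinases that dock on the 19S particle, Uchl5 and Usp14, fell in both regions, Uchl5 by 1.03 ± 0.14 and 1.51 ± 0.14 and Usp14 by 0.91 ± 0.11 and 1.06 ± 0.11 in cortex and corpus callosum. Sem1, a small lid subunit, fell by 0.54 ± 0.12 and 1.08 ± 0.12, and Hspa4 by 0.60 ± 0.14 and 0.78 ± 0.14. In corpus callosum Pomp, the maturation factor of the 20S core, fell by 0.71 ± 0.15 and Vcp, the ATPase that extracts ubiquitinated proteins, by 0.61 ± 0.12, with Txnl1 (-0.50 ± 0.11) and the shuttle factor Rad23b (-0.51 ± 0.16).

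The transcription factors of the proteasome genes were not called lower. Nfe2l1, which drives proteasome genes when the protease is inhibited, differed by -0.31 ± 0.11 in cortex (adjusted p = 0.1) and -0.20 ± 0.11 in corpus callosum (adjusted p = 0.245). Nfe2l2, the factor of the antioxidant response, rose by 0.42 ± 0.11 in cortex (adjusted p = 0.0145) and differed by 0.08 ± 0.11 in corpus callosum. Zfand5, which stimulates the protease, rose in cortex (0.51 ± 0.12), and Akirin2, which brings proteasomes into the nucleus, rose in corpus callosum (0.60 ± 0.14). Of the ubiquitin genes and their activating enzymes, only Uba6 of 6 listed was measured on its own probe set, and it fell in corpus callosum (-0.49 ± 0.15, adjusted p = 0.0342).

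The class I peptide pathway lies downstream of the immunoproteasome. Of its 10 measured genes 0 were called in cortex in limma. An unadjusted p under 0.05 was reached there by 3 of the 10, against 4517 of all 22180 genes. In corpus callosum 1, the trimming peptidase Erap1, was called lower (-0.50 ± 0.16, adjusted p = 0.0377), a count near the 10.7% of all genes called lower there. Tap1, the neighbour of Psmb9, differed by 0.29 ± 0.15 in cortex (adjusted p = 0.283) and 0.14 ± 0.15 in corpus callosum (adjusted p = 0.585), and Tap2 by 0.50 ± 0.18 and 0.45 ± 0.18, neither called. Of 11 measured genes of interferon signalling, 3 were called higher in cortex and 4 in corpus callosum, and none lower, against 4.05% and 6.56% of all genes called higher. Among the 11090 genes at or above the median level, 759 were called higher in cortex and 1005 in corpus callosum. Irf8, a transcription factor of microglia, rose by 0.62 ± 0.14 and 0.53 ± 0.14 and the receptor chain Ifnar2 by 0.68 ± 0.11 and 0.54 ± 0.11. Irf9 rose in cortex (0.51 ± 0.16), and Irf1 (0.51 ± 0.16) and Ifngr1 (0.56 ± 0.13) rose in corpus callosum.

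Over the 6 group means, the genes whose pattern was most like that of Psmb8, among the 1816 genes whose means spanned at least 1 log2 unit, were Ms4a6c (r = 0.978), Slc2a1 (0.921), Plet1 (0.920), Abca1 (0.895) and Rcan1 (0.890). The means of Psmb8 itself spanned 0.48 log2 units. These correlations rest on 6 points from shared arrays and describe the likeness only.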

How the data were processed

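Expression arrays of 18 RNA samples of sorted microglia were analysed, 3 for each of 6 groups of region and age taken from the labels. Per the labels' protocols, amplification used the Ovation PicoSL WTA System V2 and biotin labelling the Encore module. The authors deposited 1 log2 level per probe set and array, made with RMA per the submitters' processing notes. RMA subtracts background, makes the arrays' distributions alike and combines probes, so a change in total RNA per cell cannot be seen and large differences are compressed. Its version, its settings and the build behind the annotation were not given in the sources used here, and the base of the logarithm was taken as 2 because values ran from 0.87 to 13.8. Of 41345 probe sets, 23521 had 1 gene symbol in the platform annotation, 1814 had several and 16010 had none. The brightest probe set stood for each of 22180 genes, with no filter on dim genes.

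All arrays entered 1 linear model with a mean per group in limma 3.58.1 (R 4.3.3; lmFit, contrasts.fit and eBayes without trend, 12 residual degrees of freedom). Tests of 10 comparisons were two-sided and adjusted over all genes (Benjamini-Hochberg). Every adjusted p comes from this fit unless another is named. Groups of 3 cannot reach an exact permutation p below 0.1. The number of arrays limits the precision.

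The members, gene lists and comparisons were chosen with earlier results of these data known. Genes named are all members called, the catalytic subunits, activators, inhibitor and chaperones, the members with the largest differences where none was called, and the 5 genes most like Psmb8. Listed genes without a probe set of their own, among them Adrm1, Paaf1, Ddi2, H2-D1 and most ubiquitin genes, were not used here. Alternatives were quantile normalization, median centring, the mean of a gene's probe sets, brighter genes only, eBayes with trend and robust options together, array weights, only the arrays compared, a replicate block, and leaving out arrays.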

Additional observations from a re-analysis of the deposited data

How the results depend on the processing

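No call of a proteasome gene reversed under any alternative, and the counts over the 49 genes stayed within 1.5 times of the main count except as follows. In cortex, adult against P7 gave 12 calls, 19 with array quality weights, and 5 to 11 without any 1 array (5 without the third cortical P7 array, 7 without the first cortical adult array). In corpus callosum it gave 30, and 24 to 29 without any 1 array. Calls that remained in every alternative were 5 of the 12 in cortex (Psma1, Psmb1, Psmd14, Psme3 and Psmc3ip) and 21 of the 30 in corpus callosum. Quantile normalization ended the calls of Psma7 in cortex and of Psma6, Psmb5 and Psmc6 in corpus callosum. With only the arrays compared, those of Psma7, Psmb7 and Psmc5 in cortex and of Psma6, Psmc6 and Psmd4 in corpus callosum were lost. P7 against P3 in cortex gave 1 call, and 4 with array weights, which added Psmd4, Psmd7 and Psme3ip1. The regional comparison at P3 gave 0 calls, and 1 (Psmb8) among genes at or above the median level. The difference between the adult and P3 regional differences gave 0 calls, 3 with each array centred on its median, 3 among genes at or above the median level, and 0 to 2 without any 1 array (2 without the third callosal adult array). The causes of these changes were not tested, except that the restriction to brighter genes adjusts over fewer tests. Replicate numbers recur across groups, but the labels do not say that equal numbers are pairs, so the numbers were not taken as pairs. Of the 9 same-numbered regional pairs, 4 deviated together with a correlation over 0.1 (range 0.016 to 0.300). For comparisons of ages the replicate block grouped arrays of equal number over all groups. It left the counts at 12 in cortex and 30 in corpus callosum, which do not bear on regional pairs within an age. For regional comparisons and their differences it grouped equal numbers within an age. No other count of members changed under either block. Of the 9 cortical arrays, 7 correlated best with the callosal array of their own number, a hint from the data and not from the design. Over all genes, adult against P7 in cortex gave 2264 calls, and 3861 with array weights. The regional comparison gave 112 calls at P3 (16 to 273 over the other settings without single arrays left out), 100 at P7 (40 to 236) and 1 in the adult (1 to 3). P7 against P3 gave 196 calls in cortex (141 to 644) and 164 in corpus callosum (5 to 370). The regional difference in the adult against that at P7 gave 45 (10 to 105) and against that at P3 40 (0 to 242). Centring moved the share of higher calls over all genes from 69.6% to 83.6% in the regional comparison at P3, from 31.6% to 46.9% for P7 against P3 in cortex, and from 32.5% to 7.44% in the difference between the adult and P3 regional differences. Dim members (Psma5, Psmb11 and, near the array medians, Psmb3) limit what can be said of their differences.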

Other observations

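Probe sets outside the rule gave a further view of some genes. Psma4, an alpha subunit that shares its probe sets with another symbol, differed from P7 to the adult by -0.17 ± 0.14 (SE) in cortex and -0.37 ± 0.14 in corpus callosum on the brighter of its 2 probe sets, neither called in limma over all probe sets (adjusted p = 0.631 and 0.0874). A second probe set of Psmc2 was called lower in corpus callosum (-0.36 ± 0.11, adjusted p = 0.0481), where the brightest was not (-0.25 ± 0.12, adjusted p = 0.203). A probe set shared by Psme2 and 2 other symbols differed by 0.30 ± 0.18 in cortex and 0.15 ± 0.18 in corpus callosum, neither called (adjusted p = 0.448 and 0.647). Psmd1 shares a probe set with Armc9, at a mean level of 6.01, near the array medians. It differed by 0.07 ± 0.12 in cortex and 0.04 ± 0.12 in corpus callosum, neither called in limma (adjusted p = 0.861 and 0.872). This shared probe set thus did not show the fall seen on the probe set of Psmd1 alone.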
